A study of Mus musculus with 12 samples.

Results

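Cytochrome P450 genes other than those of the Cyp4a subfamily were followed in mouse kidney. They were chosen by symbol: every Cyp symbol with a family number, a subfamily letter and a gene number was taken, and numbered pseudogenes, the Cyp4a genes, Cyp4b1, Cyp24a1 and Cyp27b1 were left out. The rule found 92 members in 35 subfamilies among 23238 symbols, and no measured value entered it. Of the 92, 88 carried plain gene symbols, Cyp2c53-ps, Cyp2d37-ps and Cyp4f41-ps were pseudogenes without a number, and Cyp4x1os was an antisense transcript. RefSeq also lists Cyp2d13, which has a plain symbol, as a transcribed pseudogene. A filter on low values left 34 members to be tested, in 17 subfamilies, and 58 were too low. Kidneys of C57BL/6 mice gave 12 libraries of QuantSeq, a method that reads the 3′ ends of polyadenylated transcripts. There were 4 libraries of mice with chronic kidney disease kept on time restricted feeding (CKD TRF), a schedule that limits food to some hours of the day, 4 of mice with chronic kidney disease (CKD) and 4 of control mice (Control). All 3 groups shared the strain and the organ, and the labels gave no genotype, age, feeding hours or way of inducing the disease.

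P450 enzymes are heme proteins that insert an oxygen atom into lipids, steroids, vitamins, drugs and toxins. Most sit in the endoplasmic reticulum and take electrons from P450 oxidoreductase (Por) or cytochrome b5, while a few sit in mitochondria and take them from ferredoxin. The liver holds most of the drug-metabolizing forms, whereas the kidney tubule is known for forms that act on arachidonic acid, on sex steroids and on vitamin D. Families are numbered, subfamilies are lettered, and many mouse subfamilies are clusters of near-identical neighbouring genes.

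The libraries held 14145757 to 17209879 reads in CKD TRF, 14512483 to 16857941 in CKD and 10989969 to 12810915 in Control. Levels are given as scaled reads, which are close to CPM in size, and a count of 0 leaves room for 3 reads, worth 0.168 to 0.306 scaled reads by library. These limits cover counting error only. A change is the difference between 2 group means of the deposited values, log2(scaled reads + 1), given with its SE from limma, so the change of members near 0 is understated. A member is called changed where the limma p, adjusted over all 13943 tested genes by the Benjamini-Hochberg method, was below 0.05. The labels do not say that each library came from its own animal, so p-values measure the spread between libraries. The first principal component, with 56.1% of the variance, parted Control from the 8 diseased libraries, and Control 2 stood apart on the second (8.07%). Fat markers were high in CKD 2 and 4 and in CKD TRF 1, 3 and 4, and their level is set beside the results they touch. The summed scaled reads of a library were 987841 to 1025834 in CKD TRF, 941189 to 978419 in CKD and 1076773 to 1180101 in Control.

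The comparison of CKD with Control asks which P450 transcripts differ in the diseased kidney. Of the 34 tested members, 14 fell and 5 rose in CKD. Over all tested genes 45.4% were called, 21.8% lower and 23.6% higher. The members that fell were Cyp2j5, Cyp2j8 and Cyp2j13, Cyp2e1, Cyp2a4 and Cyp2a5, Cyp2c44, Cyp2c68 and Cyp2c69, Cyp2d9, Cyp2d12, Cyp2d26 and Cyp2d37-ps, and Cyp7b1. Those that rose were Cyp1b1, Cyp26a1, Cyp2d22, Cyp4f18 and Cyp4v3. The median change of the tested members was -0.31, against 0.02 for all tested genes. For 12 members every CKD library lay below every Control library, and for 4 every CKD library lay above, where 19.2% and 20.3% of all tested genes did so. These shares describe members that passed a filter on level and are no test of the family. Of the 19 called members, Cyp26a1, Cyp4f18, Cyp2c68 and Cyp2d37-ps had a mean under the filter in 1 of the 2 groups, so the filter admitted them through the group where they were high. All 4 were also called in a fit with no filter, and 3 rose and 12 fell among the members over the filter in both groups. The split over all genes depended on scaling: 35.8% were called higher and 11.1% lower with equal sums, and 19.01% higher and 28.1% lower with median centring. Summed over the 92 members, scaled reads were 3818 ± 228 in CKD TRF, 3722 ± 221 in CKD and 5718 ± 312 in Control (SD, n = 4 each). CKD thus held 65.1% of the Control sum. Cyp2j5 and Cyp2e1 weighed most in these sums, with means of 2891 and 958 scaled reads in Control and 1866 and 528 in CKD. Scaled reads of all genes also summed lower in CKD, at 941189 to 978419 against 1076773 to 1180101 in Control. The share of 65.1% and those of the subfamilies were not corrected for that difference. The kidney is a bulk tissue here, so fewer cells of a type and less RNA per cell cannot be told apart.

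**Figure D1:**
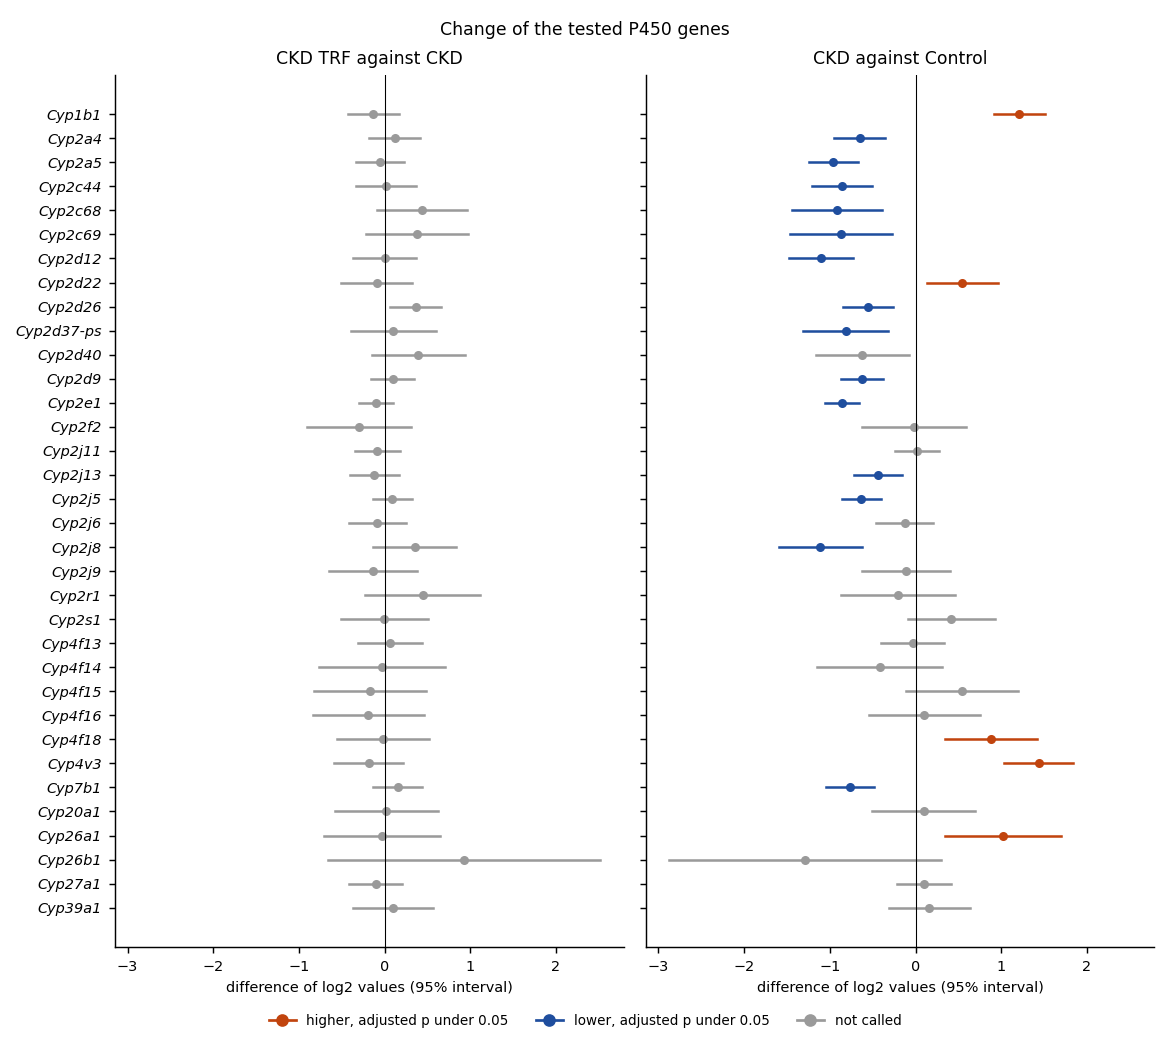
Change of each tested P450 gene, as the difference of mean log2 values with its 95% interval from limma, CKD TRF against CKD on the left and CKD against Control on the right. Blue genes fell and orange genes rose at an adjusted p under 0.05: 14 and 5 of 34 against Control, and 0 of 34 for CKD TRF against CKD.

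Changes varied with level over all tested genes, whose median change of CKD against Control was -0.30 in the 1395 genes with the highest levels and 0.28 in the 1395 with the lowest. Among the members, Cyp2j5, Cyp2e1, Cyp2j13, Cyp2a4, Cyp2d9 and Cyp2j11 were among the first of these. Among the 1395 lowest genes were 10 members, including Cyp26a1, Cyp4f18, Cyp2c68 and Cyp2c69. How far level and depth set the members' changes was not tested.

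The Cyp2j genes encode fatty acid epoxygenases and hydroxylases, and this subfamily held the most abundant transcript among the members. Its 7 genes lie side by side on chromosome 4, in the order Cyp2j13, Cyp2j12, Cyp2j11, Cyp2j8, Cyp2j6, Cyp2j9 and Cyp2j5. Cyp2j5 (chr4:96627432-96664171, mm10), an arachidonic acid epoxygenase of the proximal tubule that androgen raises in mice, stood at 1868, 2158, 1974 and 1929.8 scaled reads in CKD TRF 1 to 4, 2023, 1838, 1915 and 1687 in CKD 1 to 4, and 2981, 2714, 2820.02 and 3049.9 in Control 1 to 4. No CKD or CKD TRF library reached the lowest Control library. Cyp2j5 fell by 0.63 ± 0.11 in CKD, to 1866 ± 141 scaled reads against 2891 ± 152 in Control (SD, n = 4 each; limma adjusted p = 9.3e-05). The call ended under quantile normalization, which forces all libraries to the same distribution, at -0.18, adjusted p = 0.0941 in limma.

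Cyp2j13 (chr4:96042660-96077566) had 281, 329, 257 and 216 scaled reads in CKD TRF 1 to 4, 321, 324, 281 and 244 in CKD 1 to 4, and 377, 313, 451 and 449.7 in Control 1 to 4. The CKD and Control ranges met, since Control 2 lay below CKD 1 and CKD 2. Cyp2j13 fell by 0.44 ± 0.13 in CKD (limma adjusted p = 0.0121). Quantile normalization ended that call (-0.10, adjusted p = 0.566), as did scaling to equal sums (-0.21, adjusted p = 0.245), a fat marker covariate (-0.26, adjusted p = 0.202) and leaving out the 5 libraries with fat markers (-0.39, adjusted p = 0.0862), all by limma. Cyp2j11 (chr4:96294508-96348693), 2 genes further along, had 143, 154, 144 and 115 scaled reads in CKD TRF 1 to 4, 187, 138, 151 and 119.8 in CKD 1 to 4, and 170.3, 135, 142 and 136 in Control 1 to 4. Its 3 groups overlapped, and the difference between CKD and Control was 0.02 ± 0.13 with a 95% interval of -0.24 to 0.28 (limma adjusted p = 0.926). The next gene, Cyp2j8 (chr4:96443950-96507397), was faint and stood at 1.29, 1.92, 1.67 and 2.04 scaled reads in CKD TRF 1 to 4, 1.95, 1.06, 1.04 and 0.655 in CKD 1 to 4, and 4.39, 2.86, 3.23 and 4.11 in Control 1 to 4. All CKD and CKD TRF libraries lay below the lowest Control library. Cyp2j8 fell by 1.11 ± 0.23 in CKD (limma adjusted p = 0.000612), and 1.59% of the 50-base windows at its 3′ end also occur in Cyp2j5. The epoxygenase genes Cyp2j6 and Cyp2j9 were not called, at -0.13 ± 0.16 and -0.11 ± 0.24 (limma adjusted p = 0.549 and 0.743). Cyp2j12 was too low to test, with 14 reads in all 12 libraries. The summed Cyp2j level was 2424 ± 170.2 in CKD TRF, 2340.1 ± 200.03 in CKD and 3474 ± 207 in Control (SD, n = 4 each), 67.4% of Control in CKD. Cyp2j5 alone held 1866 of the CKD sum and 2891 of the Control sum.

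**Figure D2:**
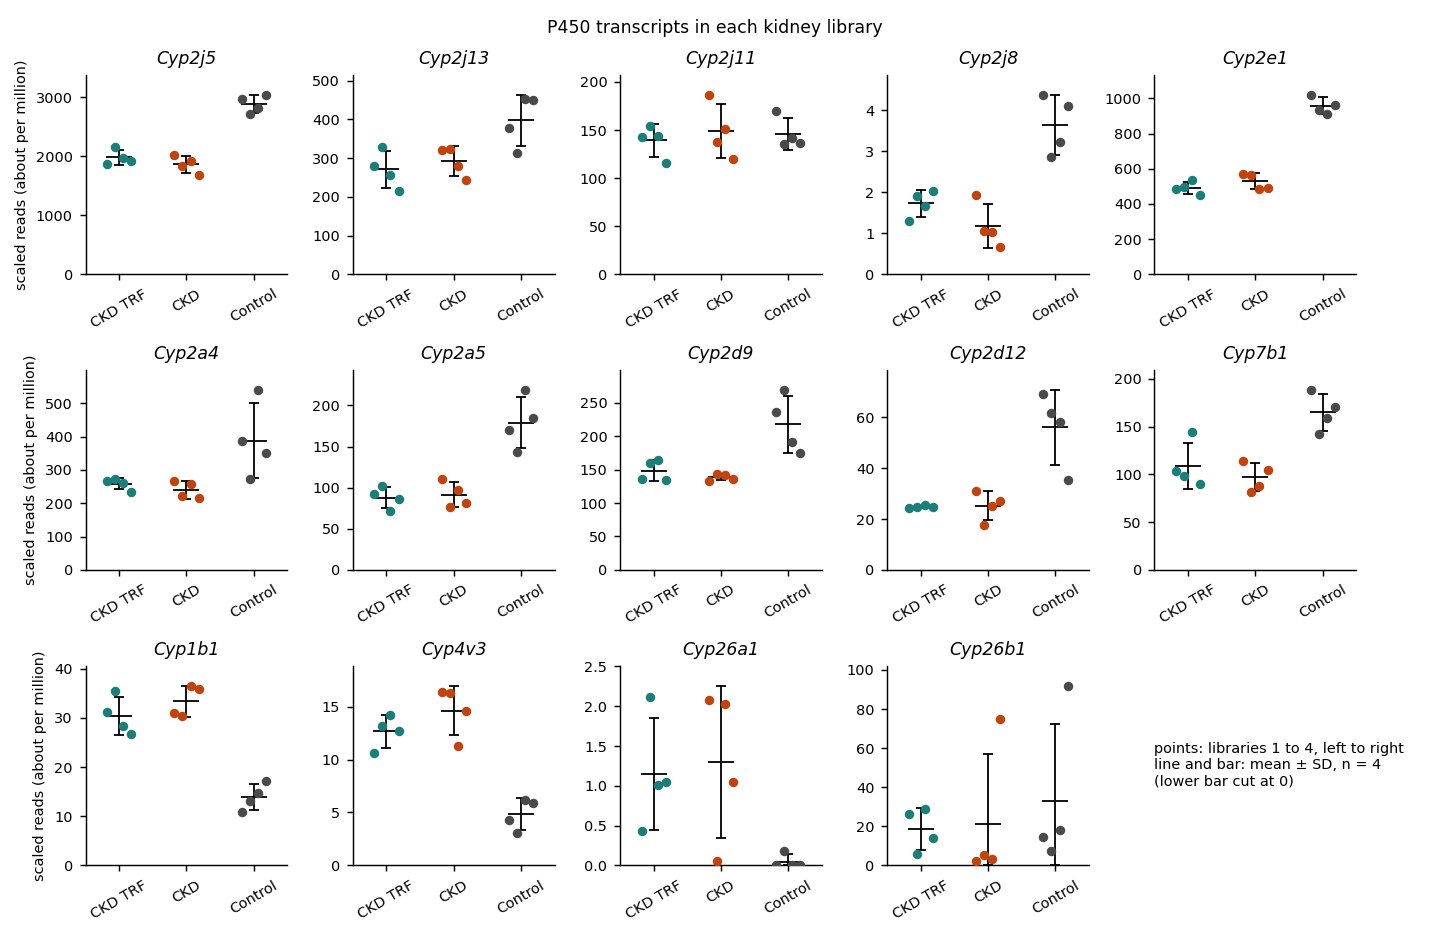
Scaled reads of 14 P450 genes in every library (points, libraries 1 to 4 from left to right) with the mean and SD of each group of 4, CKD TRF, CKD and Control. Cyp2j5 and Cyp2e1 lie lower in all 8 diseased libraries than in any Control library, Cyp2j11 lies at the same height in the 3 groups, Cyp1b1 and Cyp4v3 lie higher in all 8, and Cyp26b1 is spread widely in each group.

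Downstream of these epoxygenases, epoxide hydrolases turn the epoxides into diols. Ephx2, the soluble form that acts on arachidonic epoxides, fell by 0.48 ± 0.09 in CKD, and Ephx1, the microsomal form that acts on foreign compounds, rose by 0.81 ± 0.22 (limma adjusted p = 0.000131 and 0.00509). Their levels were 393 ± 22.98 and 26.2 ± 8.97 scaled reads in CKD, against 549.6 ± 11.6 and 14.02 ± 1.37 in Control (SD, n = 4 each).

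Cyp2e1 (chr7:140763819-140774990), which oxidizes ethanol, acetone and other small molecules, had the most reads of any single member after Cyp2j5. It stood at 482, 497, 533 and 449.7 scaled reads in CKD TRF 1 to 4, 569.9, 566, 487 and 489 in CKD 1 to 4, and 1022, 935, 913 and 961 in Control 1 to 4. The lowest Control library lay far above the highest diseased library. Cyp2e1 fell by 0.86 ± 0.09 in CKD, to 528 ± 46.1 scaled reads against 958 ± 46.9 in Control (SD, n = 4 each; limma adjusted p = 5.5e-07), and the call held under all 24 alternatives. Across these its change ran from -0.96 to -0.43. Of the 50-base windows in the last 300 bases of its transcript, 33.9% also occur in transcripts of other genes, among them Fcho2, so part of its reads cannot be placed on it with certainty. Cyp2e1 is also expressed in fat cells, and its level in the 2 CKD libraries with high fat markers, 566 and 489, was close to the 569.9 and 487 of the other 2. The part of fat cells in its level was not tested.

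Cyp2a4, a testosterone and progesterone hydroxylase, and Cyp2a5, a coumarin hydroxylase, are near copies on chromosome 7 (chr7:26307192-26315088 and chr7:26835339-26843264). Their promoters are shown because both fell and because the sequences are nearly the same: aligned, 294 of 301 positions were equal (97.7%). Each run holds the 250 bases before and the 50 bases after the start of the RefSeq gene, build GRCm38.p6, Cyp2a4 at chr7:26306942-26307241, plus strand, and Cyp2a5 at chr7:26835089-26835388, plus strand. Capitals mark a D box (TTATGNAA, here on the reverse strand), the site of the clock-controlled factors Dbp, Tef and Hlf.
Cyp2a4: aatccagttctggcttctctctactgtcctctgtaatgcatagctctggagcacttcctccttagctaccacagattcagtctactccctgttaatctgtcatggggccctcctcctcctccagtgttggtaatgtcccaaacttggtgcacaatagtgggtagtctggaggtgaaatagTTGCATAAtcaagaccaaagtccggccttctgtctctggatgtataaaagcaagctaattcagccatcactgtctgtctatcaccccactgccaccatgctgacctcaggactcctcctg
Cyp2a5: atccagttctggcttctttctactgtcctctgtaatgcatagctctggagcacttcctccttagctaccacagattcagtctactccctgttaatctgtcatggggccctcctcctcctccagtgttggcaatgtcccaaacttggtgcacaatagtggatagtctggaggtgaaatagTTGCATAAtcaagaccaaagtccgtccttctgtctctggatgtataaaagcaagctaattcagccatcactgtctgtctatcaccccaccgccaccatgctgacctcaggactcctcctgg

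Searched on both strands, TTATGNAA occurred in 3.38% of 32851 RefSeq promoters of that length, and in 4 of the 28 tested members with a promoter. Besides the Cyp2a pair, these were Cyp27a1 and Cyp4f14. Neither was called in CKD against Control (0.10 ± 0.15 and -0.42 ± 0.35, limma adjusted p = 0.617 and 0.35). Such a match is a description of the letters and not a shown binding site.

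Cyp2a4 had 266, 273, 261 and 235 scaled reads in CKD TRF 1 to 4, 266, 221, 256 and 214 in CKD 1 to 4, and 386, 272, 539 and 352 in Control 1 to 4. All 4 CKD libraries lay below the lowest Control library, Control 2, while CKD TRF 2 lay just above it. Cyp2a4 fell by 0.65 ± 0.14 in CKD (limma adjusted p = 0.00104). The call ended under quantile normalization (-0.34, adjusted p = 0.0572) and without the libraries with fat markers (-0.52, adjusted p = 0.0685), both by limma. Cyp2a5 had 91.9, 102, 71.3 and 86.4 scaled reads in CKD TRF 1 to 4, 109.97, 76.98, 97.6 and 81.9 in CKD 1 to 4, and 170.02, 144, 219 and 184 in Control 1 to 4. Every diseased library lay below every Control library. Cyp2a5 fell by 0.96 ± 0.14 in CKD, to 91.6 ± 15.1 scaled reads against 179 ± 31.2 in Control (SD, n = 4 each; limma adjusted p = 1.2e-05), and kept its call under all 24 alternatives. Of the windows at the 3′ end of Cyp2a4, 22.3% also occur in Cyp2a5, so reads could be split between the pair. In mouse liver Dbp is known to drive both genes. Dbp averaged 9.61 ± 3.86 in CKD TRF, 8.997 ± 4.08 in CKD and 27.3 ± 14.1 in Control scaled reads, and Tef averaged 98.3 ± 12.8 in CKD TRF, 106 ± 24.6 in CKD and 215 ± 33.1 in Control (SD, n = 4 each). Hlf averaged 97.5 ± 9.03 in CKD TRF, 104 ± 11.9 in CKD and 151 ± 8.32 in Control. For all 3 factors, looked up after the promoters were read, the 8 diseased libraries lay below the 4 Control libraries. Dbp came close to overlap, at 14.6 in its highest CKD TRF library and 14.7 in its lowest Control library. Of all tested genes, 19.2% lay below Control without overlap in CKD and 15.6% in CKD TRF. The hour of collection entered no fit, and its part in the levels of these clock-controlled factors was not tested. The part of the 3 factors in the Cyp2a levels was not tested either.

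The Cyp2c subfamily, with 16 members on chromosome 19 the largest, was low in these kidneys and only 3 of the 16 could be tested. Cyp2c44 (chr19:44005022-44029256), named Cyp2c23 in RefSeq and an arachidonic acid epoxygenase of the nephron, ranged over 13.6 to 20.4 scaled reads in CKD TRF, 13.6 to 23.9 in CKD and 28.2 to 36.04 in Control, with no overlap between diseased and Control libraries. Cyp2c44 fell by 0.85 ± 0.17 in CKD (limma adjusted p = 0.000375). Cyp2c68 and Cyp2c69 fell by 0.92 ± 0.25 and 0.87 ± 0.28 (limma adjusted p = 0.00556 and 0.0168), both from low levels. Cyp2c68 averaged 0.359 ± 0.2 and Cyp2c69 1 ± 0.672 scaled reads in CKD, against 1.55 ± 0.226 and 2.69 ± 1.30 in Control (SD, n = 4 each). The Cyp2c69 call ended without CKD 1, CKD 3, Control 1 or Control 4, at limma adjusted p of 0.0587, 0.0533, 0.0598 and 0.0689 in that order. Both share 3′ sequence with other Cyp2c genes (32.3% and 23.1% of windows), so these reads may belong in part to the neighbours Cyp2c40 and Cyp2c67. The summed Cyp2c level was 22.7 ± 4.73 in CKD TRF, 19.9 ± 6.49 in CKD and 37.000 ± 3.86 in Control scaled reads (SD, n = 4 each).

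The promoters of Cyp2c68 (chr19:39741052-39741351, minus strand) and Cyp2c69 (chr19:39886720-39887019, minus strand) are from RefSeq GRCm38.p6 and read along the gene. They are given because both hold the same letters, searched as a site of HNF4, a nuclear receptor that drives liver and proximal tubule genes. Capitals mark CAAAGTCCA, the HNF4 site searched, and 277 of 304 aligned positions were equal (91.1%).
Cyp2c68: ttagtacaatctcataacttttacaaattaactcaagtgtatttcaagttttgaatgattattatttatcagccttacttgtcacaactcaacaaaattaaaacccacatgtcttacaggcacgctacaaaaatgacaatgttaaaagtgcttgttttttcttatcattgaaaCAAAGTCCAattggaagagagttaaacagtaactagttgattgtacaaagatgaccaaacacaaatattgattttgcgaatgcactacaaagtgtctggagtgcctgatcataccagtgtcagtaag
Cyp2c69: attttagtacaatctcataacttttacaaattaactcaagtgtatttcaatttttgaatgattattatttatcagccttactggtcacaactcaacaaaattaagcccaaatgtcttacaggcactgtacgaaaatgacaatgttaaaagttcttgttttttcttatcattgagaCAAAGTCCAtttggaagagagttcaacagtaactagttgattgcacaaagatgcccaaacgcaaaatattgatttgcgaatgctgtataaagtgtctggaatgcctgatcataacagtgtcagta

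CAAAGTCCA occurred in 0.475% of the 32851 promoters, and these were the only 2 of the 28 members with it. Here too the match describes the letters and is not a shown binding site, and the 2 promoters are near copies. Hnf4a, the gene of HNF4 alpha, fell by 1.09 ± 0.10 in CKD, to 239 ± 27.9 scaled reads against 511 ± 38.8 in Control (SD, n = 4 each; limma adjusted p = 2.9e-08). The part of this factor in the P450 levels was not tested.

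The Cyp2d genes, whose human counterpart clears many drugs, form a cluster of 10 members on chromosome 15. Among the 6 tested, 4 fell, 1 rose and 1 was not called in CKD, where 21.8% of all tested genes fell and 23.6% rose. Cyp2d9 (chr15:82452377-82456827), a testosterone hydroxylase that is higher in male mice, had 136, 159.7, 165 and 134 scaled reads in CKD TRF 1 to 4, 133, 144, 141 and 137 in CKD 1 to 4, and 236, 269, 192 and 174 in Control 1 to 4. All 8 diseased libraries lay below the lowest Control library. Cyp2d9 fell by 0.63 ± 0.12 in CKD (limma adjusted p = 0.000248). Cyp2d12 (chr15:82555043-82559413) had 24.4, 24.7, 25.4 and 24.6 scaled reads in CKD TRF 1 to 4, 31.1, 17.8, 25.01 and 27.1 in CKD 1 to 4, and 69.2, 61.8, 57.97 and 35.2 in Control 1 to 4. Its diseased libraries lay below Control, of which Control 4 was the lowest. Cyp2d12 fell by 1.10 ± 0.18 in CKD, to 25.3 ± 5.61 scaled reads against 56.04 ± 14.7 in Control (SD, n = 4 each; limma adjusted p = 4.8e-05). Cyp2d26 fell by 0.56 ± 0.14 and the transcribed pseudogene Cyp2d37-ps, admitted by its level in Control alone, by 0.82 ± 0.24 (limma adjusted p = 0.00309 and 0.00821), and the Cyp2d26 call ended with scaling to equal sums (-0.33, adjusted p = 0.0677, limma). Cyp2d40 missed the threshold at -0.62 ± 0.26 (limma adjusted p = 0.0562). It passed under 7 alternatives, among them without CKD 4, Control 2 or Control 3, at limma adjusted p of 0.0278, 0.0397 and 0.0428 in that order. Cyp2d22 was the one that rose, by 0.54 ± 0.20 (limma adjusted p = 0.031), at 12.5 ± 1.79 scaled reads in CKD and 8.20 ± 0.506 in Control (SD, n = 4 each). The call ended under 10 of 24 alternatives, including leaving out CKD 1, CKD 3, CKD 4 or Control 4, at limma adjusted p of 0.0635, 0.0596, 0.0891 and 0.069 in that order. Windows at the 3′ end were shared with other Cyp2d genes for Cyp2d26 (26.7%), Cyp2d12 (17.1%), Cyp2d9 and Cyp2d40 (11.2% each), so single Cyp2d values are uncertain. The subfamily sum was 278 ± 18.9 in CKD TRF, 249 ± 17.6 in CKD and 389 ± 51.99 in Control scaled reads (SD, n = 4 each).

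**Figure D3:**
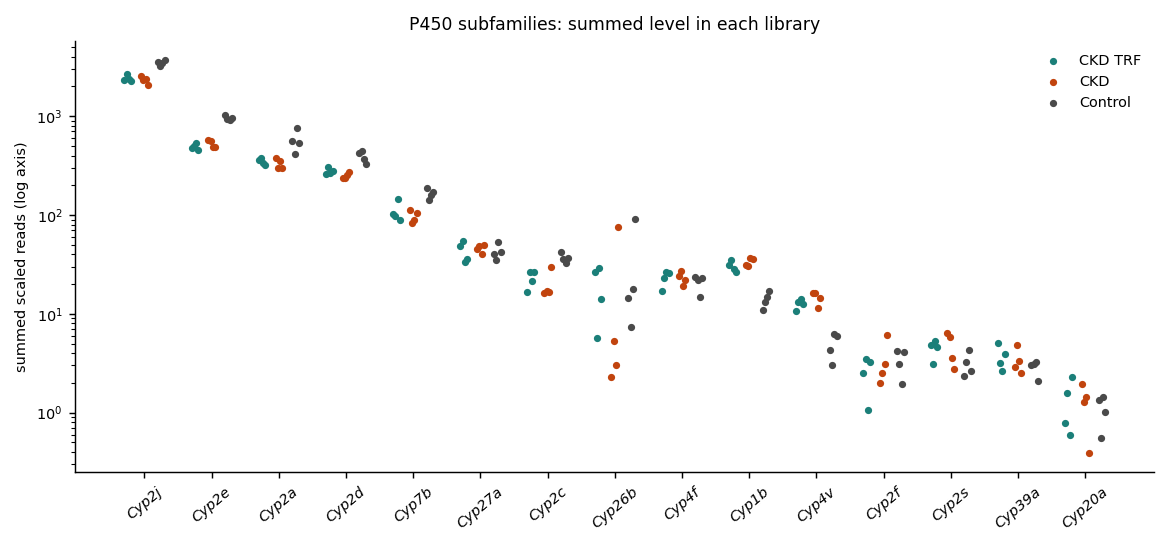
Summed scaled reads of each subfamily in every library on a log axis, CKD TRF, CKD and Control from left to right within a subfamily. Shown are the subfamilies with a mean above 1 in all groups. Cyp2j is the highest at 2424, 2340.1 and 3474 on average, and Cyp2j, Cyp2e, Cyp2a, Cyp2d and Cyp2c are lower in both diseased groups than in Control, with CKD means of 67.4%, 55.1%, 58.5%, 63.9% and 53.8% of Control in that order.

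Among the P450 genes of sterol breakdown, Cyp7b1, an oxysterol hydroxylase of the alternative bile acid pathway, was the one called. Cyp7b1 (chr3:18071944-18243890) had 103, 98.3, 144 and 89.7 scaled reads in CKD TRF 1 to 4, 114, 82.1, 88.1 and 104 in CKD 1 to 4, and 188, 143, 159 and 171 in Control 1 to 4. Every CKD library lay below every Control library, while CKD TRF 3 lay just above Control 2. Cyp7b1 fell by 0.77 ± 0.14 in CKD, to 97.1 ± 14.5 scaled reads against 165 ± 19.4 in Control (SD, n = 4 each; limma adjusted p = 0.000131). Cyp27a1, the mitochondrial sterol hydroxylase that acts before it, differed by 0.10 ± 0.15 with a 95% interval of -0.21 to 0.41 (limma adjusted p = 0.617). Cyp39a1, another oxysterol hydroxylase, differed by 0.16 ± 0.23 (limma adjusted p = 0.595). In the list of other bile acid and oxysterol genes, 6 of 13 tested fell and none rose in CKD, with a median change of -0.25, where 21.8% of all tested genes fell and 23.6% rose. Amacr, the racemase of the peroxisomal side chain steps, fell by 1.30 ± 0.11 to 112 ± 12.6 scaled reads in CKD against 279 ± 34.2 in Control, and the peroxisomal thiolase and sterol carrier gene Scp2 fell by 0.95 ± 0.11 to 464 ± 28.8 against 906 ± 148 (SD, n = 4 each; limma adjusted p = 2.5e-08 and 8.0e-07). Cyp7a1 and Cyp8b1 of the classical liver pathway and the brain enzyme gene Cyp46a1 were too low to test.

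Cyp1b1 (chr17:79706940-79715061) is a target of the aryl hydrocarbon receptor that acts on oestradiol and polycyclic aromatic hydrocarbons. Its promoter (RefSeq GRCm38.p6, chr17:79715012-79715311, minus strand, read along the gene) holds the core of that receptor's site, GCGTG, once, on the reverse strand and in capitals here.
Cyp1b1: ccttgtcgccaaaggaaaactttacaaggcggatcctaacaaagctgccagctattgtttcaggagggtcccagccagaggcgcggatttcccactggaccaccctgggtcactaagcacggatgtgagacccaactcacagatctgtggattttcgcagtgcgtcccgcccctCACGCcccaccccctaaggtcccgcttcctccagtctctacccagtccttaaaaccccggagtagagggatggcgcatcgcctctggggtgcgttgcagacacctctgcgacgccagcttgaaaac

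The same 5 letters occurred in 32.4% of all promoters and in 9 of the 28 members, so they mark no particular gene. Cyp1b1 had 31.3, 35.4, 28.4 and 26.7 scaled reads in CKD TRF 1 to 4, 30.9, 30.5, 36.5 and 35.9 in CKD 1 to 4, and 10.9, 13.2, 14.7 and 17.2 in Control 1 to 4. Every diseased library lay above every Control library. Cyp1b1 rose by 1.21 ± 0.14 in CKD, to 33.4 ± 3.16 scaled reads against 13.997 ± 2.63 in Control (SD, n = 4 each; limma adjusted p = 1.3e-06), and the call held under all 24 alternatives. Of the other P450 genes this receptor is known to drive, Cyp1a1 and Cyp1a2 were too low to test. Cyp1a1 averaged 0.0791 ± 0.0968 scaled reads in CKD TRF, 0.145 ± 0.173 in CKD and 0.61 ± 0.611 in Control, and Cyp1a2 0.709 ± 0.507 in CKD TRF and 0.317 ± 0.251 in CKD (SD, n = 4 each), with 0 in every Control library. Cyp2s1, also known as a target of this receptor, was tested and not called (0.42 ± 0.24, limma adjusted p = 0.168). Among 15 tested sensors and regulators of P450 genes, 5 rose and 4 fell in CKD, where 23.6% and 21.8% of all tested genes did. Ahr, the aryl hydrocarbon receptor, rose by 0.87 ± 0.26, its partner Arnt by 0.54 ± 0.16, and the acute phase factor Cebpb by 0.92 ± 0.21 (limma adjusted p = 0.0101, 0.0088 and 0.00159). Besides Hnf4a, the oxysterol receptor Nr1h3 fell by 0.92 ± 0.11 and the bile acid receptor Nr1h4 by 0.89 ± 0.12 (limma adjusted p = 2.3e-06 and 8.5e-06). Cyp1b1 is known from fibroblasts and other stromal cells, and all 5 fibroblast markers rose in CKD, with summed levels of 946 to 1100.1 scaled reads in CKD and 187 to 242 in Control. Their part in the Cyp1b1 level was not tested.

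The Cyp26 enzymes break down retinoic acid, and Cyp26a1 is itself switched on by retinoic acid through receptors that bind direct repeats with a 5-base spacer. The Cyp26a1 promoter (RefSeq GRCm38.p6, chr19:37697558-37697857, plus strand) is shown because it was the one promoter of 28 tested members with such a repeat, AGNTCA 2 times with any 5 bases between, in capitals here on the reverse strand. The window is set on a transcript start 70 bases inside the gene's full span, so the repeat begins 38 bases inside that span.
Cyp26a1: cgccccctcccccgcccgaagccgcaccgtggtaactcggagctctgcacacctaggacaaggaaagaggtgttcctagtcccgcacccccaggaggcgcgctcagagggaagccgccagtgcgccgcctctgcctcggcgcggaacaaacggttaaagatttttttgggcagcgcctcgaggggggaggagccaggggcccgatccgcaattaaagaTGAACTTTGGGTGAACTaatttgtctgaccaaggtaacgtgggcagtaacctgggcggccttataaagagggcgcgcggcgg

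That repeat occurred in 0.204% of all promoters. Cyp26a1 (chr19:37697738-37701536) was the faintest tested member, just above the filter, and had 0.43, 2.12, 1.01 and 1.05 scaled reads in CKD TRF 1 to 4, 2.08, 0.0563, 2.03 and 1.05 in CKD 1 to 4, and 0, 0.184, 0 and 0 in Control 1 to 4. The 4 Control libraries together held 2 reads, both in Control 2, against 84 reads in CKD, of which CKD 2 held 1, and 71 in CKD TRF. Per depth, CKD was 27.7 times Control, with an exact 95% interval of 7.43 to 232 that covers counting error only. Cyp26a1 rose by 1.02 ± 0.32 on the log2 scale in CKD (limma adjusted p = 0.014). Its mean log2 value was 1.08 in CKD and 0.061 in Control, so only the diseased libraries took it past the filter, and with no filter the adjusted p was 0.0204. The call ended under quantile normalization (0.66, adjusted p = 0.105) and without CKD 1 or CKD 3 (adjusted p = 0.0559 and 0.0536), all by limma.

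Cyp26b1 (chr6:84571414-84593908), named after its values were seen, varied most within groups. It had 26.4, 5.70, 28.7 and 14.1 scaled reads in CKD TRF 1 to 4, 2.27, 5.32, 3.02 and 74.9 in CKD 1 to 4, and 14.3, 7.37, 18.03 and 91.99 in Control 1 to 4. The highest libraries were Control 4 and CKD 4, and the 3 other CKD libraries lay below all Control libraries. The difference of -1.29 ± 0.76 between CKD and Control did not pass (95% interval -2.88 to 0.30, limma adjusted p = 0.176). Without CKD 4 it was -2.32, adjusted p = 0.00282, without the libraries with fat markers -2.59, adjusted p = 0.00706, and with a fat marker covariate -2.90, adjusted p = 0.00333, all by limma. The mean log2 level of the fat markers was highest in CKD 4, at 4.95, and 0.89 in Control 4.

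Retinoic acid is made by Aldh1a enzymes and carried and read by binding proteins and receptors. In the list of 14 tested retinoid genes 8 rose and none fell in CKD, with a median change of 0.74, where 23.6% of all tested genes rose. Aldh1a2 rose by 2.36 ± 0.26 to 11.7 ± 3.14 scaled reads in CKD against 1.48 ± 0.677 in Control, and Aldh1a1 by 1.46 ± 0.22 to 21.2 ± 11.3 against 6.43 ± 0.103 (SD, n = 4 each; limma adjusted p = 7.2e-07 and 2.1e-05). The vitamin A carrier gene Rbp4 rose by 1.41 ± 0.30 and the receptor gene Rarg by 0.71 ± 0.16 (limma adjusted p = 0.000825 and 0.00161). Rdh10, Dhrs3, Lrat, Rara, Rarb and Bco1 were not called.

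Cyp4v3 (chr8:45305801-45333163), a fatty acid omega-hydroxylase and the mouse counterpart of human CYP4V2, had the largest rise of the members in CKD on the log2(scaled reads + 1) scale. As a share of the Control mean its CKD level was 301%, under the 349.7% of Cyp4f18 and the ratio of 27.7 given for Cyp26a1, both of which are faint. It had 10.6, 13.1, 14.2 and 12.7 scaled reads in CKD TRF 1 to 4, 16.3, 16.3, 11.3 and 14.6 in CKD 1 to 4, and 4.29, 3.04, 6.21 and 5.94 in Control 1 to 4. The diseased and Control libraries did not overlap. Cyp4v3 rose by 1.44 ± 0.19 in CKD, to 14.6 ± 2.36 scaled reads against 4.87 ± 1.48 in Control (SD, n = 4 each; limma adjusted p = 6.9e-06), and the call held under all 24 alternatives. The Cyp4f genes, whose enzymes inactivate leukotrienes by omega-oxidation, did not move together. Cyp4f18, the form of neutrophils and other myeloid cells and the one Cyp4f member on chromosome 8 and not 17, rose by 0.88 ± 0.26 (limma adjusted p = 0.00808). It averaged 1.75 ± 0.25 scaled reads in CKD and 0.5 ± 0.221 in Control (SD, n = 4 each), and the call ended under quantile normalization (0.48, adjusted p = 0.141) and without the libraries with fat markers (0.77, adjusted p = 0.0685), by limma. All 6 macrophage markers rose in CKD, with summed levels of 261 to 366 scaled reads in CKD and 103 to 121 in Control, and their part in the Cyp4f18 level was not tested. Cyp4f13 was the most abundant Cyp4f gene and differed by -0.03 ± 0.18, with a 95% interval of -0.40 to 0.34. Cyp4f14, Cyp4f15 and Cyp4f16 differed by -0.42 ± 0.35, 0.54 ± 0.31 and 0.10 ± 0.31 (limma adjusted p = 0.35, 0.164 and 0.819).

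The remaining tested members were not called in CKD. Cyp2r1, which starts the activation of vitamin D, differed by -0.20 ± 0.32 (limma adjusted p = 0.633). Cyp2f2, which activates naphthalene in lung, differed by -0.01 ± 0.29, and Cyp20a1, an orphan enzyme, by 0.09 ± 0.29 (limma adjusted p = 0.973 and 0.817). Their 95% intervals ran over -0.87 to 0.46 for Cyp2r1 and -0.62 to 0.59 for Cyp2f2.

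The 58 members below the filter included whole subfamilies that dominate in liver or in steroid-making glands. All 9 Cyp3a genes, the main drug-metabolizing family of the liver, were among them, as were all 5 Cyp2b genes and the 13 other Cyp2c members. Of the 58, 41 had reads in at least 1 library, with at most 103 over all 12 (Cyp2d34). The 17 others were listed at 0 in every library: Cyp11b2, Cyp19a1, Cyp26c1, Cyp2a22, Cyp2b13, Cyp2b19, Cyp2c39, Cyp2c53-ps, Cyp2g1, Cyp2w1, Cyp3a16, Cyp3a41a, Cyp3a41b, Cyp3a44, Cyp3a57, Cyp4x1 and Cyp4x1os. The filter stood at a mean log2 value of 0.729, with Cyp26a1 just above it at 0.732 and Cyp2d34 just below at 0.678. The adrenal steroid genes Cyp11a1, Cyp11b1, Cyp17a1 and Cyp21a1 had 9, 5, 10 and 2 reads in all 12 libraries. Of 9 adrenal markers Hsd3b1, Nr5a1, Th and Pnmt were at 0 in all 12 libraries, Dbh in 11 and Mc2r in 4, while Star, Akr1b7 and Scarb1 had reads in every library. The summed level of the 9 was 16.3 to 23.8 scaled reads in CKD and 11.5 to 12.6 in Control. Scarb1, a lipoprotein receptor found in many tissues, rose by 1.12 ± 0.21 in CKD (limma adjusted p = 0.000248), and Star and Akr1b7 were not called. The part of adrenal RNA in the reads of these genes was not tested.

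P450 enzymes need heme and electrons, and the genes that supply these were read from lists. Por, the reductase of nearly all members, differed by -0.0022 ± 0.09 between CKD and Control, at 222 ± 14.1 scaled reads in CKD and 223 ± 13.4 in Control (SD, n = 4 each; limma adjusted p = 0.986). Of 11 tested electron partners 4 fell and none rose, where 21.8% and 23.6% of all tested genes did. Cyb5a, cytochrome b5, fell by 0.71 ± 0.12 and the ferredoxin gene Fdx1 by 0.77 ± 0.10 (limma adjusted p = 7.5e-05 and 5.6e-06). Of 9 heme synthesis genes 4 fell and none rose, beside the same shares. Alas1, the rate-limiting step outside red cells, differed by -0.13 ± 0.12 (limma adjusted p = 0.407), while Uros fell by 1.27 ± 0.29 and the red cell form Alas2 by 1.65 ± 0.28 (limma adjusted p = 0.00146 and 8.5e-05). Of 4 heme breakdown genes 1 rose and 2 fell, with Hmox1, the inducible heme oxygenase, higher by 0.54 ± 0.17 and Blvra, biliverdin reductase, lower by 0.97 ± 0.12 (limma adjusted p = 0.0162 and 2.3e-06). Among the flavin monooxygenases, which oxidize foreign compounds without heme, Fmo5 and Fmo1 fell by 0.94 ± 0.12 and 0.56 ± 0.11 (limma adjusted p = 2.9e-06 and 0.000404) and the other 2 tested were not called.

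Several of these genes are known from the proximal tubule. Of 9 proximal tubule markers 6 fell and none rose in CKD, where 21.8% and 23.6% of all tested genes did. The median change of the markers was -0.40. The summed marker level was 7101 to 8231 scaled reads in CKD and 9923 to 12408 in Control. Slc34a1, the phosphate transporter of that segment, differed by -0.29 ± 0.13 (limma adjusted p = 0.0681), and Slc7a13, a transporter of its last part, fell by 1.34 ± 0.13 (limma adjusted p = 7.5e-08). The part of tubule cell number in the P450 levels was not tested.

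**Figure D4:**
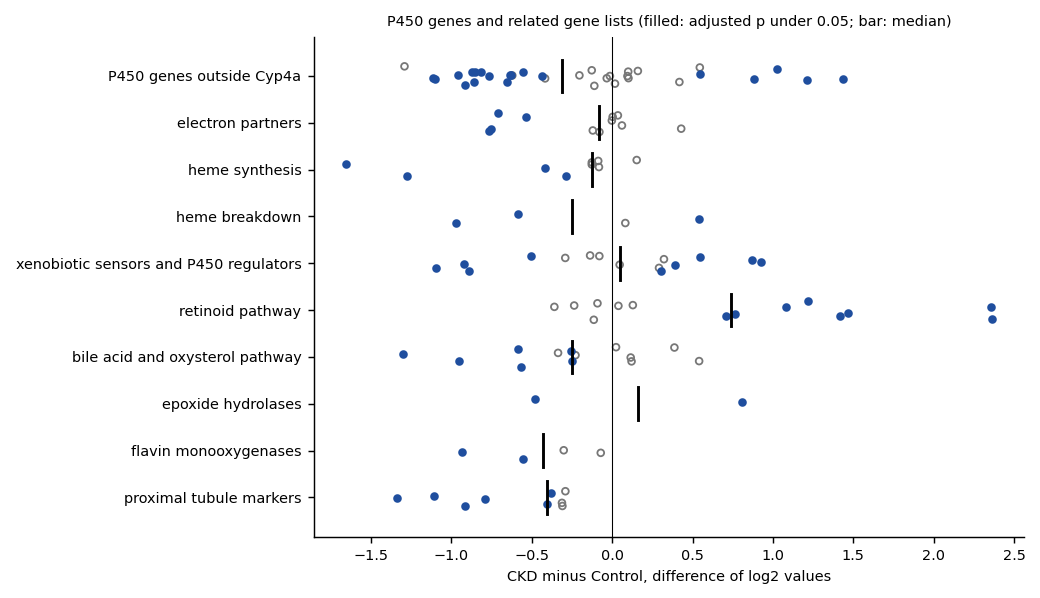
Changes of CKD against Control for the tested P450 genes and for related gene lists, 1 point per gene, filled where the limma adjusted p was under 0.05, with a bar at the median. The P450 median is -0.31 with genes on both sides of 0, the retinoid genes that are called all rose, and the called proximal tubule markers all fell, with a median of -0.40.

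The comparison of CKD TRF with CKD asks whether time restricted feeding changes P450 transcripts in diseased kidneys. By limma none of the 34 tested members passed, and none of all 13943 tested genes did (0% called). At an unadjusted p under 0.05, 1 member and 890 genes (6.38%) passed, and limma voom on the recovered reads also called none. For no member did the 2 groups part, where they did for 4.5% of all tested genes. The member with the smallest p was Cyp2d26, higher in CKD TRF by 0.36 ± 0.14 (limma adjusted p = 0.719), at 86.1, 99.1, 67.8 and 105 scaled reads in CKD TRF 1 to 4 and 55.4, 60.9, 72.9 and 89.6 in CKD 1 to 4. The median change of the members was -0.0029, and -0.0075 for all tested genes.

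A missed threshold does not show that the groups were alike, and the intervals give what remained possible. For 14 members the 95% interval lay within 0.5 of 0 on the log2(scaled reads + 1) scale and for 32 of 34 within 1. That scale understates changes of faint members, so for them these limits do not bound the ratio of levels. Cyp2c68 counts as within 1, though it averaged 0.872 scaled reads in CKD TRF and 0.359 in CKD. For the abundant genes the intervals were narrow. Cyp2e1 differed by -0.10 ± 0.09 (95% interval -0.30 to 0.09), Cyp2j5 by 0.09 ± 0.11 (-0.14 to 0.32) and Cyp2j11 by -0.09 ± 0.13 (-0.35 to 0.18). Cyp2a5 differed by -0.06 ± 0.14 (-0.34 to 0.23), Cyp2d9 by 0.09 ± 0.12 (-0.15 to 0.34) and Cyp7b1 by 0.15 ± 0.14 (-0.13 to 0.43). For the genes that rose in CKD, the interval was -0.43 to 0.16 for Cyp1b1, -0.59 to 0.22 for Cyp4v3 and -0.71 to 0.64 for Cyp26a1. The intervals of Cyp26b1 (-0.66 to 2.52) and Cyp2r1 (-0.22 to 1.11) were the 2 that reached past 1. None of the lists of electron partners, heme, retinoid, bile acid or regulator genes held a called gene either.

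CKD TRF was also set against Control, with the same 4 Control libraries, so this comparison is not independent of the first. Of the 34 tested members 11 fell and 4 rose in CKD TRF, where 37.5% of all tested genes were called, 17.9% lower and 19.5% higher. For 8 members all CKD TRF libraries lay below all Control libraries and for 3 they lay above (15.6% and 16.3% of all tested genes). Cyp26a1, Cyp4f18 and Cyp2d37-ps were again under the filter in 1 of the 2 groups, and among the other members 2 rose and 10 fell. The members that rose were Cyp1b1 (1.08 ± 0.14), Cyp26a1 (0.99 ± 0.32), Cyp4f18 (0.86 ± 0.26) and Cyp4v3 (1.25 ± 0.19), with limma adjusted p = 8.2e-06, 0.0204, 0.0117 and 4.9e-05. On that log2 scale the largest falls were those of Cyp2d12 (-1.10 ± 0.18), Cyp2a5 (-1.01 ± 0.14) and Cyp2e1 (-0.97 ± 0.09), with limma adjusted p = 7.1e-05, 1.0e-05 and 2.2e-07. As a share of the Control mean, the faint Cyp2d37-ps stood lower, at 35.7%, than Cyp2d12 at 44.2%, and the faint Cyp2j8, at 47.4%, stood lower than Cyp2a5 and Cyp2e1, at 49.1% and 51.2%. Cyp2j5 fell by 0.54 ± 0.11, Cyp2j13 by 0.56 ± 0.13 and Cyp2j8 by 0.76 ± 0.23 (limma adjusted p = 0.000571, 0.00287 and 0.0134), and Cyp2j11 differed by -0.07 ± 0.13 (limma adjusted p = 0.703). Quantile normalization ended the calls of Cyp2j5 (-0.21, limma adjusted p = 0.0716) and Cyp2j13 (-0.28, limma adjusted p = 0.115). A fat marker covariate ended that of Cyp2j8 (-0.60, limma adjusted p = 0.104). Cyp2a4, Cyp2c44, Cyp2d9, Cyp2d37-ps and Cyp7b1 fell by 0.53 to 0.84.

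For 4 members the 2 comparisons with Control fell on different sides of the threshold. Cyp2d26 differed from Control by -0.20 ± 0.14 in CKD TRF and by -0.56 ± 0.14 in CKD, and Cyp2d22 by 0.45 ± 0.20 and 0.54 ± 0.20 in the same order. Cyp2c68 differed by -0.48 ± 0.25 in CKD TRF and -0.92 ± 0.25 in CKD, and Cyp2c69 by -0.49 ± 0.28 and -0.87 ± 0.28. The test of the difference itself, CKD TRF against CKD, called none of the 4 (limma adjusted p = 0.719, 0.96, 0.817 and 0.847). In CKD TRF against Control, the Cyp26a1 call ended under quantile normalization (0.64, adjusted p = 0.136) and without CKD TRF 2 (adjusted p = 0.0767). The Cyp4f18 call also ended under quantile normalization (0.49, adjusted p = 0.149). That of Cyp2d37-ps ended without CKD TRF 1, Control 1, Control 2 or Control 3 (adjusted p = 0.0599, 0.0513, 0.0501 and 0.0581). It also ended with a fat marker covariate (adjusted p = 0.0725). Cyp2a4 lost its call under quantile normalization, equal sums and a fat marker covariate (adjusted p = 0.137, 0.0556 and 0.0713). Cyp2d22 passed without CKD TRF 3 and with equal sums (adjusted p = 0.00772 and 0.0291). Cyp2c68 and Cyp2c69 passed under quantile normalization (adjusted p = 0.0136 and 0.0321), all by limma. Without the 5 libraries with fat markers, which leaves 1 CKD TRF library that is assumed to vary like the others, 8 members were called in place of 15, and 1478 of all genes in place of 5225. Among the members no longer called, Cyp2j5 differed by -0.42, adjusted p = 0.246, Cyp2a4 by -0.46, adjusted p = 0.289 and Cyp2d9 by -0.42, adjusted p = 0.229 in limma, beside -0.54, -0.54 and -0.53 with all libraries.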

How the data were processed

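The deposited log2 values were made by the authors, 1 per gene symbol and library, and neither the files nor the labels name the unit or the scaling. The values read as log2(scaled reads + 1), since 98.2% to 100% of those below 20 scaled reads were whole reads to within 0.1. Per the labels' protocols, Trizol RNA (500 ng) was made into libraries with Lexogen's QuantSeq kit. The submitters' processing notes name Bowtie2, bedtools and mm10, and roles, versions and strand setting are not given in the sources used here. Of several entries with 1 symbol the highest was kept, and the 60% of genes with the highest mean log2 value were tested. The 3 groups entered 1 model in limma 3.58.1 under R 4.3.3. Its moderated test, two-sided and with trend, was run on the log2 values, which was 1 of the forms planned by unit, and Benjamini-Hochberg adjustment at 0.05. The method was tested on simulated data. Values in every library are given for members called with a change of at least 1, for members with a mean of at least 100 scaled reads and for any called in CKD TRF against CKD. Members and gene lists were chosen with earlier results of these data known. One of the regulator genes is not reported here. Promoters and positions came from RefSeq GRCm38.p6, where all 92 members matched, and shared 3′ windows from GENCODE transcripts. Alternatives covered scaling, pseudocount, filter, test, samples, replicate block and fat markers.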

Additional observations from a re-analysis of the deposited data

Results flagged for a closer look

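Cyp26a1 in Control 2 stood at 0.244 on the log2 scale, where the 3 other Control libraries were at 0, so that 1 library lay apart from the rest of its group. It rests on 2 reads. The check looked at 39 sets of 4 libraries, and chance flags about 1 in 20 of such sets where values do not tie. With 3 libraries tied at 0, any read in Control 2 sets off the flag, so that rate does not apply here.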

How the results depend on the processing

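No member reversed its direction past the threshold under the 24 alternatives run. Of the members called as reported, 11 of 19 in CKD against Control and 7 of 15 in CKD TRF against Control were called under every alternative that could test them, and in CKD TRF against CKD none was called under any. The number of called members moved by more than 1.5 times once, to 8 from 15 in CKD TRF against Control without the libraries with fat markers, where all genes called were 1478 in place of 5225. Leaving out each library in turn gave 16 to 20 in CKD against Control, 0 to 0 in CKD TRF against CKD and 14 to 16 in CKD TRF against Control. In those fits 38.6% to 45.3% of all genes were called in CKD against Control and 31.5% to 36.9% in CKD TRF against Control. With quantile normalization 2 members rose and 12 fell in CKD, against 5 and 14 as reported. That was 41.2% of the members, beside 42.8% of all genes called. In CKD TRF against Control 2 rose and 10 fell, against 4 and 11, which was 35.3% of the members beside 34.5% of all genes. With equal sums 5 rose and 12 fell in CKD, and the median change of all genes shifted by 0.20, with 4989 genes higher and 1547 lower against 3297 and 3036 as reported. That shift was -0.10 with median centring, at 4 and 15 members and 2650 and 3918 genes. With no filter on low values 22 of 75 members (29.3%) were called in CKD against Control and 33.3% of 18750 genes, whereas with the filter the shares were 55.9% and 45.4%. With the replicate number as a block 19 members were called in CKD against Control, 15 in CKD TRF against Control and 0 between the diseased groups. Of all genes 44.0%, 36.1% and 0% were called in that order. The deviations of same-numbered libraries correlated at -0.18 to 0.11, and in 2 of 12 pairs the correlation was best with the own number. Such a check cannot exclude that the numbers pair libraries. The edgeR and DESeq2 fits planned for counts were not run, because the deposited unit is log2. Depth limits the 10 members of lowest level, where a few reads set a value.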

Other observations

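For 9 P450 genes known mainly from liver, chosen after their values were seen (Cyp1a2, Cyp2c29, Cyp2c37, Cyp2c50, Cyp2c54, Cyp3a11, Cyp3a25, Cyp7a1 and Cyp8b1), summed reads were 21, 135, 93 and 40 in CKD TRF 1 to 4, 33, 17, 14 and 48 in CKD 1 to 4, and 0, 0, 3 and 9 in Control 1 to 4. CKD TRF 2 and CKD TRF 3 held the most, and Control 1 and Control 2 held none. Alb, the liver gene of serum albumin, stood at 13.3, 43.3, 35.8 and 10.8 scaled reads in CKD TRF 1 to 4, 10.8, 10.9, 9.98 and 29.4 in CKD 1 to 4, and 7.86, 9.49, 9.61 and 12.8 in Control 1 to 4. The libraries highest in Alb were also CKD TRF 2 and CKD TRF 3, followed by CKD 4, and the same 3 were highest in Apoa1, an apolipoprotein gene. Of 7 liver markers, Ahsg rose by 1.10 ± 0.39 and Fgb fell by 1.11 ± 0.32 in CKD (limma adjusted p = 0.0267 and 0.00748). In CKD TRF against Control, Alb, Apoa1 and Ahsg rose by 1.09, 1.09 and 1.25 (limma adjusted p = 0.0205, 0.0203 and 0.0164) and none fell. Other P450 genes that liver also expresses had lower means in CKD than in Control, with Cyp2b10 at 0.167 and 0.574, Cyp2c40 at 0.2 and 0.963, and Cyp2c67 at 0.265 and 0.848 scaled reads. The part of liver RNA in these reads was not tested, and none of the 9 genes passed the filter.

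Urothelium markers, which come from the lining of the renal pelvis, rose in CKD for 6 of 6 genes, with summed levels of 28.5 to 139.7 scaled reads in CKD and 3.68 to 14.6 in Control. Loop and distal tubule markers rose for 3 of 3 in CKD and for 1 of 3 in CKD TRF against Control. Their summed levels overlapped, at 2707 to 2857 scaled reads in CKD and 1398 to 2821 in Control. Of 3 collecting duct markers 1 rose and 2 fell in CKD, and of 2 podocyte markers 1 rose. Over all tested genes 23.6% rose and 21.8% fell in CKD. The part of these cell types in the P450 levels was not tested.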
